A study of Homo sapiens with 4 samples.

Results

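A set of 10 genes that move, store and sense iron inside cells was followed in HCT116 cells treated with HJ-23: TFRC, SLC11A2 and STEAP3 for uptake, FTH1, FTL and NCOA4 for storage and release, SLC40A1 for export, and ACO1, IREB2 and FBXL5 for sensing. They were chosen by name and matched by symbol to Ensembl identifiers, and all 10 are among the 20263 genes of each count table. HCT116 is an established human colorectal carcinoma line, labelled wild type. One group of 2 libraries received 30 µM HJ-23 for 24 hours, and the other group of 2 libraries received 0.1% DMSO, the solvent, for 24 hours. HJ-23 is a piperine derivative by the series title, and its structure was not used here. The treatment field of the treated samples reads HJ-25, while their titles read HJ-23, and the titles are followed. Whether the 2 libraries of 1 group are separate cultures is not in the labels, so the spread behind each p-value may be technical.

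Total counts ran from 29769568 to 34831207 per library. By chi-square over degrees of freedom of their counts, HJ-23 replicate 1 was nearer to DMSO replicates 1 and 2 (57.4 and 66.8) than to HJ-23 replicate 2 (70.7), the DMSO libraries were at 36.5 from each other, and HJ-23 replicate 2 was at 88.2 and 139 from them. Epithelial markers were at a summed 4030 to 5500 CPM (the count scaled to a common library size with TMM), with 5 of 6 at 1 CPM or more and VIL1 below it. Markers of erythroid cells, which are rich in iron genes, summed to 2.26 to 3.11 CPM, with 1 of 3, HBA1, at 1 CPM or more. The 5 macrophage markers summed to 35.3 to 51.7 CPM, with 1, CD68, at 1 CPM or more. The 4 fibroblast markers summed to 55.8 to 63.7 CPM, with 1, COL1A1, at 1 CPM or more. Markers of leukocytes summed to 0.0564 to 0.308 CPM, of endothelial cells to 0.752 to 1.31 CPM and of hepatocytes to 0.0644 to 0.239 CPM. Over all genes tested, log2 fold changes followed transcript GC content across genes (Spearman 0.38, 14047 genes, which are not independent replicates), so each tested member is also given with a GC and length correction where its value moves by over 1.5 times.

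Iron enters most cells bound to transferrin, through the transferrin receptor TFRC; it is reduced in the endosome by STEAP3 and passes to the cytosol through SLC11A2 (DMT1). Ferritin, a shell of FTH1 and FTL chains, stores it, NCOA4 carries ferritin to lysosomes for release, and ferroportin, SLC40A1, exports it. The iron regulatory proteins ACO1 (IRP1) and IREB2 (IRP2) bind a hairpin in some of these mRNAs, the iron-responsive element (IRE), when iron is low; FBXL5 marks IREB2 for degradation when iron is high. A bound IRE before the coding sequence blocks translation, as in ferritin, and bound IREs after it stabilise the TFRC mRNA. RNA counts see the second mode and not the first.

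The IREs are shown because they are the sequence feature that ties storage, export and uptake genes to the same sensors. A strict form was searched on the sense strand of GENCODE 29 coding transcripts: C, 5 bases, the loop CAGTGN, and 5 bases able to pair with the first 5, G-T pairs allowed. It was found in 4 of the 10 members, FTH1, FTL, SLC40A1 and TFRC, with 4 separate sites in TFRC. Among the representative transcripts of 14047 genes tested, 1.42% hold a match, though these transcripts differ in length. This share is not like that of the members, whose coding transcripts were all searched. SLC40A1 is also not among the genes tested, as its counts were too low. The sites listed below are all on representative transcripts. Each site below is a window of 28 bases on the transcript strand, 5′ to 3′, with the 6 loop bases in capitals. The match is a description of the letters, not a measurement of binding.
FTH1: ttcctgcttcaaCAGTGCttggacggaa
FTL: ctcttgcttcaaCAGTGTttggacggaa
SLC40A1: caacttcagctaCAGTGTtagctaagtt
TFRC site 1: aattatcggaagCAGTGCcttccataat
TFRC site 2: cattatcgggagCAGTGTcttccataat
TFRC site 3: ctgtatcggagaCAGTGAtctccatatg
TFRC site 4: aattatcgggaaCAGTGTttcccataat

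In GRCh38 coordinates of GENCODE 29, which may not be the build of the authors' counting, the FTH1 window is chr11:61967575-61967602 (minus strand), the FTL window chr19:48965335-48965362 (plus strand) and the SLC40A1 window chr2:189580662-189580689 (minus strand), all in the 5′ UTR. The windows of FTH1 and FTL share 25 of 28 bases. The TFRC windows lie in the 3′ UTR on the minus strand, from chr3:196050980-196051007 for site 1 to chr3:196050464-196050491 for site 4. They start at bases 3388, 3792, 3857 and 3904 of a transcript of 5111 bases. SLC11A2, which is known to have transcript forms with and without an IRE, had no match to this strict form in its 18 coding transcripts, and gene-level counts do not separate its forms.

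None of the iron handling genes passed the test of HJ-23 against DMSO. Of the 10 members 9 were tested and SLC40A1 was too low; with edgeR's quasi-likelihood test and Benjamini-Hochberg adjustment over 14062 genes, 0 of 9 had an adjusted p below 0.05, against 0.0853% of all genes tested (0.0569% higher and 0.0284% lower in HJ-23). DESeq2 fitted 16717 genes and all 10 members, and called 0 of the 10, against 1.86% of the genes it fitted. It gave SLC40A1 no adjusted p, and genes without an adjusted p are counted in both of these shares. These are bulk RNA measurements, in which fewer cells of a kind and less RNA per cell cannot be told apart. At an unadjusted p below 0.05 there were 2 of 9, FTH1 and ACO1, against 12.0% of all genes. The libraries of the 2 groups did not overlap for 5 of the 9, FTH1, FTL and STEAP3 on the higher side in HJ-23 and ACO1 and NCOA4 on the lower, against 46.0% of all genes (24.8% higher and 21.2% lower), so this share was near the background. The median log2 fold change of the 9 was -0.045, against 0.0086 for all genes tested, and turned to 0.051 with the GC and length correction. The smallest absolute log2 fold change among the 12 genes called anywhere in the table was 1.82, while the largest among the 9 was 0.48. No gene with a smaller absolute log2 fold change than 1.82 was called, so differences of the size seen in these 9 were outside what the test called. Each 95% interval of the 9 lay between -0.996 and 0.80, so a 2-fold difference was outside all 9 intervals in this fit, though narrowly for NCOA4. The intervals are not adjusted for the number of genes, and their width depended on the fit. The SE of FTH1 was 0.13 here, 0.28 with the replicate number as a block and 0.092 with the GC and length correction. As the spread within groups may be technical, the intervals do not bound a difference between cultures.

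**Figure D1:**
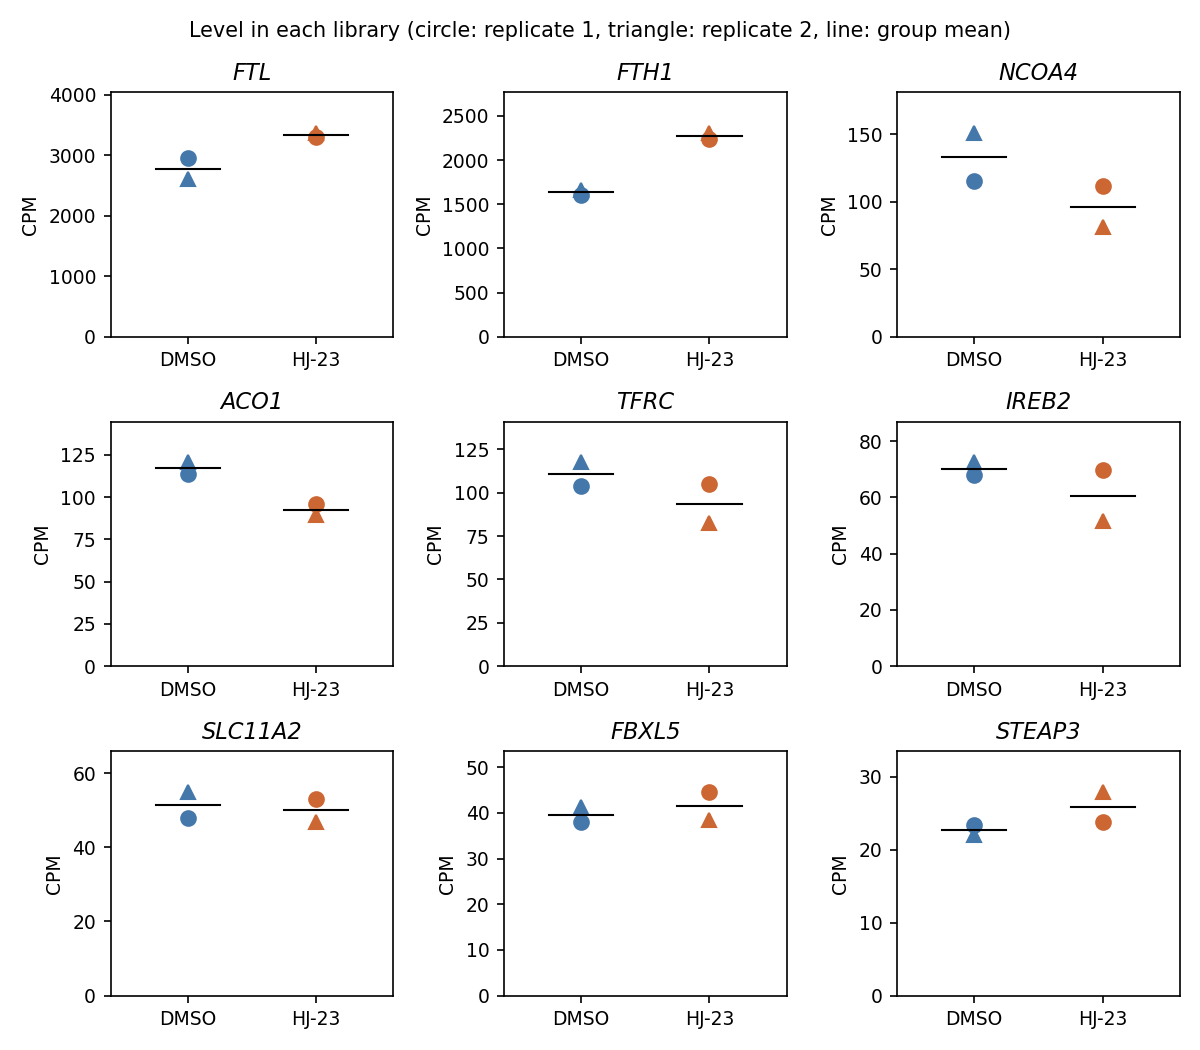
CPM of the 9 tested iron handling genes in each library, with each vertical axis starting at 0; circles are replicate 1, triangles replicate 2, and lines the mean of 2 libraries. FTH1 shows the widest gap between groups relative to the spread within them, from 1601 and 1665 CPM in DMSO to 2239 and 2309 CPM in HJ-23, and NCOA4, TFRC and IREB2 are lowest in HJ-23 replicate 2.

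The ferritin chains were the most abundant members, and both had positive log2 fold changes. FTH1 (ENSG00000167996), the heavy chain that oxidises iron for storage, was at 1601 and 1665 CPM in DMSO and at 2239 and 2309 CPM in HJ-23. The treated libraries were both above the solvent libraries, and the groups' SDs were 45.8 and 49.4 CPM. The log2 fold change was 0.48, or 1.39-fold (edgeR adjusted p = 0.309, SE 0.13, 95% interval 0.15 to 0.80), which did not pass. It was 0.46 with the GC and length correction (adjusted p = 0.129, edgeR), 0.46 with DESeq2 (adjusted p = 0.120), and from 0.43 to 0.48 when each library was left out in turn. FTL (ENSG00000087086), the light chain that helps the iron core form, was at 2954 and 2603 CPM in DMSO and at 3306 and 3372 CPM in HJ-23. Its groups also did not overlap, but the DMSO libraries differed from each other by more than the HJ-23 libraries did. The log2 fold change of FTL was 0.27 (edgeR adjusted p = 0.491, SE 0.14, 95% interval -0.086 to 0.62), 0.15 either with the GC and length correction or without DMSO replicate 2, and 0.36 without DMSO replicate 1. Both genes have processed pseudogenes elsewhere in the genome that could take or give reads in the authors' counting, so their levels are uncertain to that extent.

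NCOA4 (ENSG00000266412), the receptor that delivers ferritin for breakdown, was at 115.2 and 151.0 CPM in DMSO and at 111.6 and 81.2 CPM in HJ-23. The groups did not overlap, though DMSO replicate 1 and HJ-23 replicate 1 were close to each other. Its log2 fold change was -0.47 (edgeR adjusted p = 0.456, SE 0.22, 95% interval -0.996 to 0.065). The size depended on single libraries, from -0.73 without HJ-23 replicate 1 and -0.65 without DMSO replicate 1 to -0.28 without HJ-23 replicate 2 or without DMSO replicate 2.

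The 3 uptake genes had log2 fold changes from -0.24 to 0.19, and 0 of 3 passed. TFRC (ENSG00000072274) was at 104.2 and 117.6 CPM in DMSO and at 105.2 and 82.4 CPM in HJ-23. HJ-23 replicate 1 lay between the DMSO libraries and HJ-23 replicate 2 below them, so the groups overlapped. The log2 fold change was -0.24 (edgeR adjusted p = 0.591, SE 0.17, 95% interval -0.66 to 0.18), -0.45 without HJ-23 replicate 1, and -0.10 either without HJ-23 replicate 2 or with the GC and length correction. SLC11A2 (ENSG00000110911) was at 48.0 and 55.0 CPM in DMSO and at 53.1 and 46.8 CPM in HJ-23. Its groups overlapped, and its log2 fold change was -0.045 (95% interval -0.45 to 0.36, adjusted p = 0.929, edgeR), which turned to 0.059 with the GC and length correction. STEAP3 (ENSG00000115107), the endosomal ferrireductase, also known as a p53 target, was at 23.4 and 22.0 CPM in DMSO and at 23.8 and 27.95 CPM in HJ-23. The groups did not overlap, but HJ-23 replicate 1 was barely above DMSO replicate 1. The log2 fold change was 0.19 (edgeR adjusted p = 0.670, SE 0.17), 0.046 when HJ-23 replicate 2 was left out, 0.28 when HJ-23 replicate 1 was, 0.12 when DMSO replicate 2 was, and 0.051 after correction for GC and length.

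SLC40A1 (ENSG00000138449), ferroportin, was counted 4 and 0 times in DMSO and 2 and 0 times in HJ-23. All 4 values are under the floor of 6 counts per library, which stands for 3 fragments with both mates counted and corresponds to 0.169 to 0.205 CPM. Ferroportin mRNA was thus not detectable at this depth in either group, no fold is given, and the limit covers counting error only.

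Among the sensors, ACO1 was the one whose groups did not overlap. ACO1 (ENSG00000122729), which is a cytosolic aconitase when it holds an iron-sulfur cluster and an IRE-binding protein when it does not, was at 113.5 and 120.6 CPM in DMSO and at 95.7 and 89.3 CPM in HJ-23. Both HJ-23 libraries were below both DMSO libraries. Its log2 fold change was -0.34 (edgeR adjusted p = 0.405, SE 0.13, 95% interval -0.67 to -0.0094), from -0.41 to -0.31 when each library was left out, and -0.14 with the GC and length correction. IREB2 (ENSG00000136381), its paralog, which is controlled by degradation, was at 68.0 and 72.5 CPM in DMSO and at 69.6 and 51.5 CPM in HJ-23. HJ-23 replicate 1 lay between the DMSO libraries, and only HJ-23 replicate 2 was below them. The log2 fold change of IREB2 was -0.21 (edgeR adjusted p = 0.660, SE 0.19), and it was -0.47 when HJ-23 replicate 1 was left out, -0.038 when HJ-23 replicate 2 was left out and -0.029 after correction for GC and length. FBXL5 (ENSG00000118564), the iron-sensing subunit of the ligase that degrades IREB2, was at 37.9 and 41.3 CPM in DMSO and at 44.6 and 38.5 CPM in HJ-23. Its groups overlapped, and its log2 fold change was 0.070 (edgeR adjusted p = 0.885, SE 0.17), 0.17 with the GC and length correction and -0.060 without HJ-23 replicate 1.

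**Figure D2:**
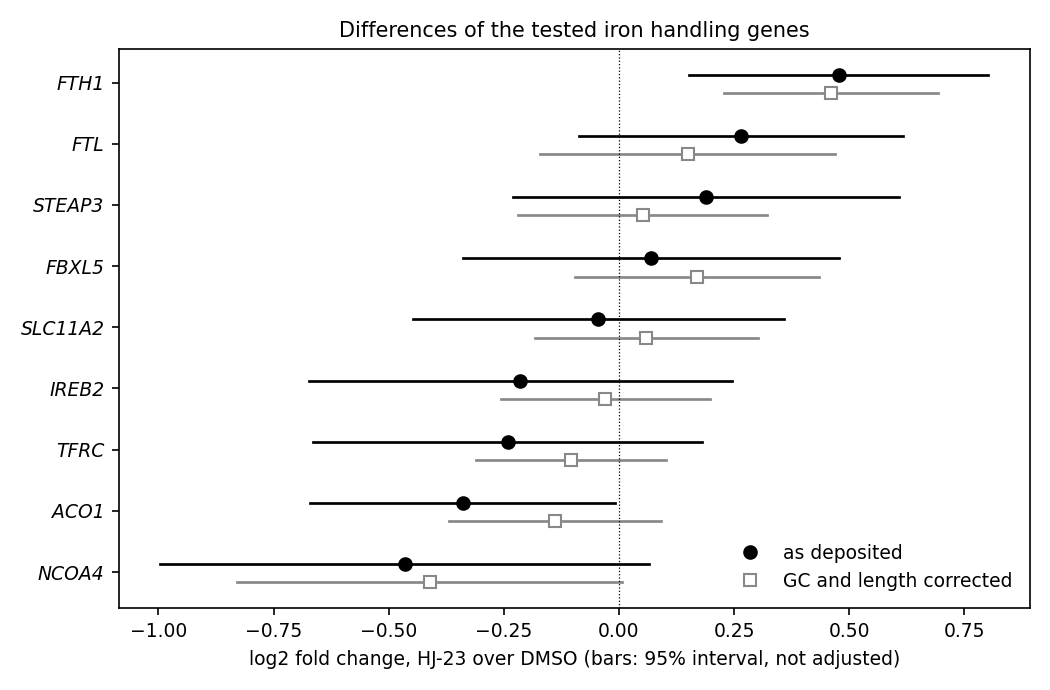
Log2 fold change of each tested iron handling gene, HJ-23 over DMSO, from the deposited counts (filled circles) and with the GC and length correction (open squares); bars are 95% intervals from edgeR, not adjusted for the number of genes. FTH1 stays near 0.48 under both, ACO1 goes from -0.34 to -0.14, and no member passed the adjusted threshold.

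Library scaling cancels in ratios of counts within a library, and 3 such ratios were taken. A trend with GC content or length does not cancel between genes, and the ratios were not corrected for it. With that correction the log2 fold changes of TFRC, FTH1 and FTL were -0.10, 0.46 and 0.15. TFRC over FTH1, uptake over storage, was 0.0651 and 0.0706 in DMSO and 0.0470 and 0.0357 in HJ-23. The groups did not overlap, and the mean ratio in HJ-23 was 0.609 times that in DMSO. FTH1 over FTL was 0.542 and 0.640 in DMSO and 0.677 and 0.685 in HJ-23, again without overlap, with a quotient of means of 1.15. For both ratios the exact two-sided permutation test gave p = 0.333, the smallest value this test can give for 2 against 2 libraries, so it could not have called them. ACO1 over IREB2 was 1.67 and 1.66 in DMSO and 1.38 and 1.73 in HJ-23, with the DMSO values between the HJ-23 values (p = 1.0, exact permutation test, two-sided). FTH1 and FTL together were at 4555 and 4268 CPM in DMSO and at 5545 and 5681 CPM in HJ-23, a quotient of means of 1.27, given without a test.

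**Figure D3:**
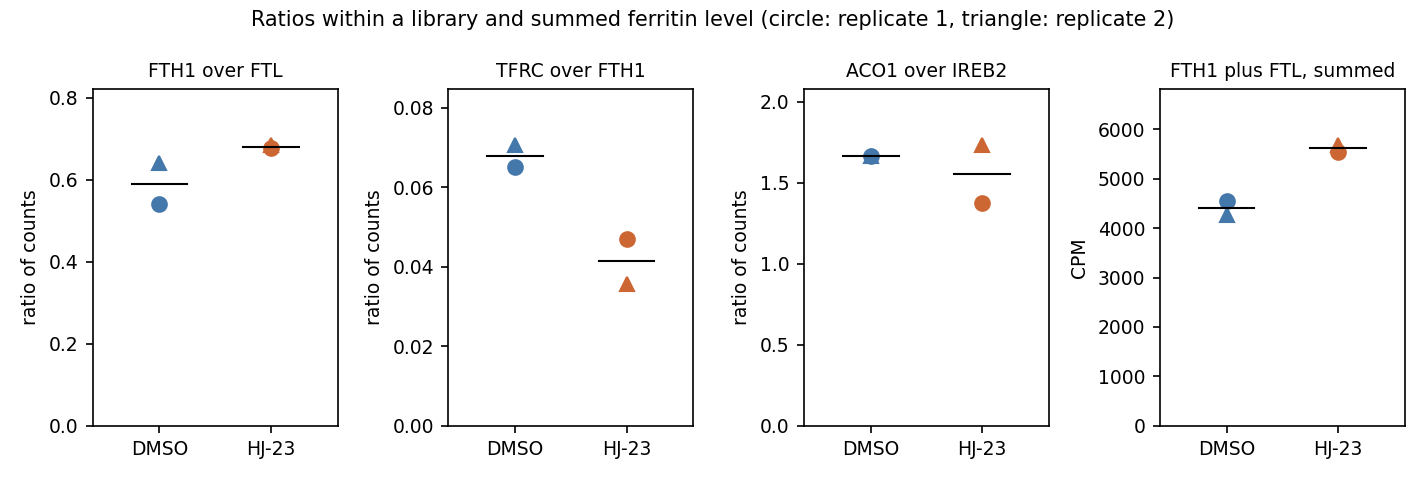
Ratios of counts within each library for 3 pairs of iron handling genes, and the summed CPM of FTH1 and FTL, with every vertical axis starting at 0; circles are replicate 1, triangles replicate 2, lines group means. TFRC over FTH1 lies lower in both HJ-23 libraries (0.0470 and 0.0357) than in both DMSO libraries (0.0651 and 0.0706), while ACO1 over IREB2 overlaps.

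Levels of different genes were compared as CPM per kilobase of a representative GENCODE 29 transcript. In DMSO the order was FTL at 3165 ± 283, FTH1 at 1329 ± 37.3, NCOA4 at 57.7 ± 10.97, TFRC at 21.7 ± 1.85 and ACO1 at 15.7 ± 0.68 CPM per kilobase (mean ± SD, n = 2). Next came SLC11A2 at 12.4 ± 1.18, FBXL5 at 11.7 ± 0.70 and IREB2 at 11.1 ± 0.495, whose libraries overlapped from each gene to the next, and then STEAP3 at 5.80 ± 0.26, with SLC40A1 not detectable. In HJ-23 the libraries of ACO1 (12.4 ± 0.61), FBXL5 (12.3 ± 1.28) and SLC11A2 (11.99 ± 1.07 CPM per kilobase) overlapped one another. By CPM, without regard to length, FTL ranked 15 and FTH1 ranked 30 among the 14062 genes tested. The order depends on the transcript taken for each gene.

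Of 102 further genes of iron and heme metabolism, 93 were tested and 0 passed with edgeR over all genes; DESeq2 called 1 of the 98 it fitted, HMOX1, against 1.86% of all genes it fitted. At an unadjusted p below 0.05 there were 7 of 93 (7.53%, against 12.0% of all genes), 5 higher and 2 lower in HJ-23. Groups did not overlap for 44 of 93, or 47.3%, against 46.0% of all genes, and the median log2 fold change was 0.067, which turned to -0.0052 with the GC and length correction. HMOX1, heme oxygenase, which frees iron from heme and is a target of NRF2, was at 22.5 and 20.7 CPM in DMSO and at 34.8 and 42.2 CPM in HJ-23. Both HJ-23 libraries were above both DMSO libraries, and the log2 fold change was 0.83 (edgeR adjusted p = 0.233, SE 0.18); it passed with DESeq2 (adjusted p = 0.0161). Ferritin genes are NRF2 targets as well. The log2 fold changes of FTH1 (0.48) and FTL (0.27) were positive but smaller, and neither chain passed. A role of NRF2 in these values was not tested, nor was the difference between HMOX1 and either chain.

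The remaining heme genes showed small differences. SLC48A1, an endosomal heme transporter, was at 20.8 ± 0.22 CPM with DMSO and 27.2 ± 1.66 with HJ-23 (mean ± SD, n = 2), and FLVCR1, at first described as a heme exporter, at 42.0 ± 0.51 and 33.5 ± 2.63. With the GC and length correction their log2 fold changes went from 0.39 to 0.23 and from -0.32 to -0.16. In heme synthesis 0 of 13 tested genes had an unadjusted edgeR p below 0.05, against 12.0% of all genes. Those with the smallest p were CPOX, at 501.7 ± 19.5 and 419.8 ± 17.8 CPM, SLC25A38, the glycine carrier, at 26.0 ± 0.52 and 32.2 ± 1.75 CPM, and FECH, which inserts iron into the porphyrin ring, at 27.3 ± 1.58 and 31.8 ± 2.89 CPM.

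In mitochondrial iron and iron-sulfur assembly 13 of 22 genes had a positive log2 fold change and 9 a negative one, with a median of 0.12, and 0 passed. At an unadjusted edgeR p below 0.05 there were 2 of 22, both higher in HJ-23, against 12.0% of all genes. Groups did not overlap for 16 of 22 (72.7%), 10 higher and 6 lower in HJ-23, against 46.0% of all genes. The difference between these shares was not tested. FDXR, the ferredoxin reductase, which is also a p53 target, was at 94.0 and 81.9 CPM in DMSO and at 109.0 and 157.7 CPM in HJ-23. Its log2 fold change was 0.60 (edgeR adjusted p = 0.370, SE 0.21), 0.35 after correction for GC and length, 0.28 without HJ-23 replicate 2, and 0.82 when HJ-23 replicate 1 was left out. FDX2, its partner in cluster assembly, was at 4.05 ± 0.65 and 6.82 ± 1.11 CPM, and CISD3, a mitochondrial iron-sulfur protein, at 17.4 ± 0.998 and 23.6 ± 3.05 CPM. With the GC and length correction the log2 fold change of FDX2 went from 0.75 to 0.55 and that of CISD3 from 0.43 to 0.27. For FDXR, FDX2 and CISD3 both HJ-23 libraries were above both DMSO libraries, as for 10 of the 22 genes of this group and 24.8% of all genes. These 3 were named for their small p, so their separation is no further evidence. In the cytosolic assembly group 0 of 9 had an unadjusted edgeR p below 0.05, against 12.0% of all genes. There NUBP2, a scaffold protein, was at 22.1 and 20.4 CPM in DMSO and at 23.6 and 48.0 CPM in HJ-23, so only HJ-23 replicate 2 was far from the rest. CIAPIN1 was at 31.6 ± 0.73 and 25.6 ± 1.67 CPM, and CIAO2B at 51.7 ± 4.72 and 58.0 ± 17.6 CPM. Correction for GC and length took the log2 fold change of NUBP2 from 0.75 to 0.44. It took that of CIAO2B from 0.17 to 0.026 and that of CIAPIN1 from -0.30 to -0.33.

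Other uptake and storage genes likewise did not pass. SLC39A8, a metal importer, was at 30.4 ± 0.47 CPM with DMSO and 25.4 ± 2.89 with HJ-23, and DNM2, the dynamin that frees endocytic vesicles, at 181.3 ± 11.2 and 216.6 ± 25.1. Correction for GC and length took their log2 fold changes from -0.26 to -0.18 and from 0.26 to 0.052. CYBRD1, a ferrireductase, was at 63.1 and 18.01 CPM in DMSO and at 20.7 and 22.4 CPM in HJ-23, so that DMSO replicate 1 alone stood apart. Of the storage and chaperone group, HERC2, the ligase that turns over NCOA4, was at 114.5 ± 3.95 and 91.3 ± 12.5 CPM, GLRX3 at 33.8 ± 1.43 and 40.1 ± 0.034 CPM, and PCBP4 at 47.5 ± 7.81 and 58.6 ± 26.9 CPM. Their log2 fold changes went with that correction from -0.33 to -0.080, from 0.25 to 0.33 and from 0.30 to 0.054. The group of exporters and systemic regulators had 5 of 9 genes tested, and ERFE (16.3 ± 2.90 and 19.7 ± 2.34 CPM) and BMP6 (6.45 ± 0.48 and 6.49 ± 0.28 CPM) overlapped between groups. The hormone hepcidin, HAMP, had 0 counts in all 4 libraries.

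The 3 further subunits of the ligase that FBXL5 belongs to had negative log2 fold changes. Of these, 0 of 3 had an unadjusted edgeR p below 0.05, against 12.0% of all genes. SKP1 was at 133.5 ± 11.5 and 115.5 ± 2.99 CPM, CUL1 at 56.4 ± 10.2 and 46.4 ± 4.47 CPM, and RBX1 at 43.6 ± 2.23 and 34.7 ± 8.81 CPM. The sign of SKP1 turned with the GC and length correction (0.096). Of other transcripts described with IREs, PFN2, an actin-binding profilin, was at 78.2 and 61.4 CPM in DMSO and at 107.9 and 101.8 CPM in HJ-23 (edgeR adjusted p = 0.310 for a log2 fold change of 0.59, SE 0.17; 0.40 without DMSO replicate 2). EPAS1, the hypoxia factor HIF-2 alpha, was at 174.5 ± 2.79 and 152.6 ± 1.02 CPM. The strict form searched above had no match in the 14 coding transcripts of PFN2 or the 2 of EPAS1. PFN2 thus had a positive and EPAS1 a negative log2 fold change, and the 5 tested genes of this group had a median of -0.00027.

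**Figure D4:**
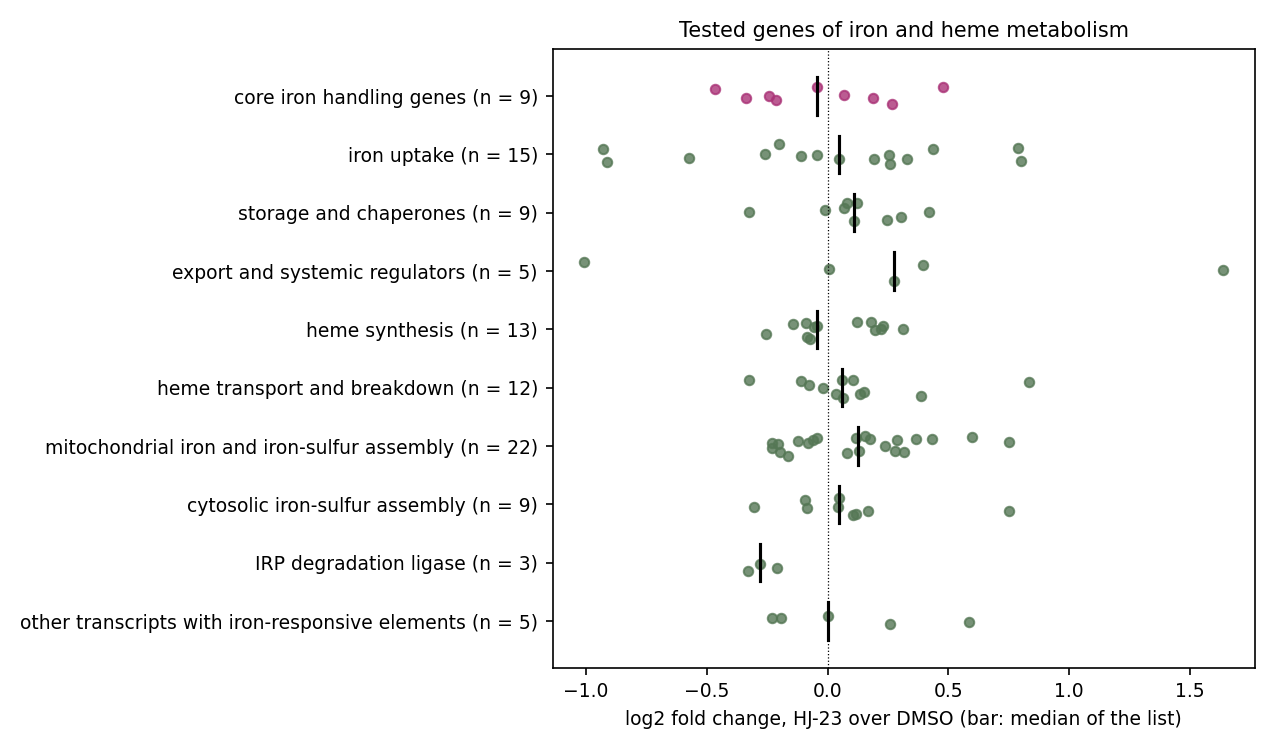
Log2 fold change, HJ-23 over DMSO, of the 9 tested core iron handling genes and of the tested genes of 9 related groups (1 point per gene, vertical position within a row has no meaning, bars are medians). Most points lie between -0.5 and 0.5, the core genes run from -0.47 to 0.48, and 0 genes shown passed the adjusted threshold with edgeR.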

How the data were processed

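The authors deposited whole-number counts per Ensembl gene, 1 table per library, without normalization, as the values show. HISAT2, RSEM, Trimmomatic, FastQC and bedtools are listed per the submitters' processing notes; their roles, their settings, strandedness and the build used are not stated in the sources used here. Of counts from 1 to 8, 69.6% to 72.3% per library were even, so both mates appear to have been counted. Of the identifiers, 20148 took a symbol from the name table, 76 from GENCODE 29, and 39 had none. Libraries of a group differed beyond sampling noise. The counts were fitted with edgeR 4.0.16 in R 4.3.3 (TMM, filterByExpr, robust quasi-likelihood F-test, legacy option, 2 residual degrees of freedom, threshold 0.05); the code was tested on simulated data. SE is the log2 fold change over the square root of F, and CPM is the count over the TMM-scaled library size. Alternatives were RLE scaling, DESeq2 1.42.0, other filters, a replicate block, GC and length offsets from natural splines, and leaving out each library. Genes, lists and tests were chosen with earlier results of these data known. All 10 members were named; from each of the 9 related groups up to 3 genes with a mean of at least 5 CPM and the smallest edgeR p, and HMOX1, were named, and others were chosen after their values were seen. Values of 1 gene named by this rule are not reported here.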

Additional observations from a re-analysis of the deposited data

How the results depend on the processing

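With 2 libraries per group, counts of calls depended strongly on the settings, and the cause was not tested. Over the whole table edgeR called 8 genes higher and 4 lower; the counts were 161 and 150 with DESeq2, 18 and 13 without a filter, 0 and 0 with a filter at 10 CPM (1254 genes at an unadjusted p below 0.05), and 24 and 13 with the GC and length correction. With the replicate number as a block they were 136 and 158, and with that block and the GC and length correction 0 and 0 (1550 at an unadjusted p below 0.05). Leaving out a library gave 0 to 112 higher and 0 to 161 lower. Deviations of same-numbered libraries from their group means correlated at -0.182, and 2 pairs do not show that the numbers pair the libraries. A crossed pairing, chosen after seeing the data, called 454 and 512 genes. Among them were 1 iron handling gene higher, FTH1, and 1 lower, NCOA4, and 4 higher and 1 lower of the wider list. Under all other alternatives 0 iron handling genes passed. In the wider list DESeq2 called 1 higher, and leaving out a library gave 0 to 1 higher and 0 to 1 lower: SLC39A14 without DMSO replicate 1 and CYBRD1 without DMSO replicate 2. With the GC and length correction the sign changed for SLC11A2 (0.059, and 0.059 with the block), ERFE (-0.060 and -0.058), BMP6 (-0.10 and -0.10) and SKP1 (0.096 and 0.086); BMP6 also changed sign with RLE scaling (-0.0085) and DESeq2 (-0.0077). Leaving out each library gave -0.16 to 0.032 for SLC11A2, -0.060 to 0.15 for FBXL5, -1.57 to 0.26 for CYBRD1, -0.29 to 0.69 for PCBP4, -0.090 to 0.084 for BMP6 and -0.21 to 0.43 for CIAO2B. For the quotient of ACO1 over IREB2, 0.933 with all libraries, it gave 0.825 to 1.04.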

Other observations

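A few genes of iron metabolism had libraries of 1 group far from each other. SLC39A14, a zinc and iron importer, was at 163.3 and 68.4 CPM in DMSO and at 99.4 and 214.2 CPM in HJ-23. STEAP2, a relative of STEAP3, was at 8.43 and 6.84 CPM in DMSO and at 20.96 and 5.64 CPM in HJ-23, and HFE, which binds the transferrin receptor, at 4.15, 3.42, 9.93 and 3.14 CPM in the same order. For STEAP2 and HFE the library apart was HJ-23 replicate 1, while for the DMSO group of CYBRD1 it was replicate 1.

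Among genes below the level set for naming, TMPRSS6, a protease that restrains hepcidin signalling, was at 6.60 and 5.78 CPM in DMSO and at 3.13 and 3.02 CPM in HJ-23 (edgeR adjusted p = 0.233 for a log2 fold change of -1.01, SE 0.21). PROM2, linked to the export of ferritin in vesicles, was at 0.418 and 0.444 CPM in DMSO and at 1.04 and 1.66 CPM in HJ-23 (edgeR adjusted p = 0.288 for a log2 fold change of 1.64, SE 0.42). Neither passed. These genes and those of the paragraph before were chosen after their values were seen.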
